A study of Mus musculus with 9 samples.

Results

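Sox genes encode transcription factors that share the HMG box, a DNA-binding domain first described in the testis-determining factor Sry. The 9 Sox genes described here are Sox4, Sox5, Sox6, Sox7, Sox9, Sox12, Sox13, Sox17 and Sox18. They were taken by symbol from the platform annotation, each had 1 probe set that named no other gene, and they are 9 of the 20 Sox family genes, Sry included, among the 19938 genes measured.

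Total RNA of 9 mouse liver samples was hybridised to Affymetrix Mouse Gene 1.0 ST arrays, 1 array per sample. The 4 control samples were healthy livers of monotransgenic mice with the Rosa26-lsl-NICD allele, an intracellular domain of Notch1 (NICD) that stays silent without Cre. The 5 tumour samples were hepatocellular carcinomas (HCC) of bitransgenic AFP-Cre/Rosa26-lsl-NICD mice, in which Cre was driven by the AFP (alpha-fetoprotein) promoter. Both groups carried the Rosa26-lsl-NICD allele on a hybrid 129 x C57BL/6 background, and the mice were 6 to 12 months old. The controls carried no Cre, so Cre, active NICD and tumour growth differed between the groups together and cannot be told apart.

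The family is divided into subgroups by the similarity of the HMG box. Sox9 belongs to SoxE and marks bile duct cells and liver progenitor cells, where it is known as a gene switched on by Notch during bile duct formation. Sox4 and Sox12 are SoxC proteins, activators of progenitor cells, and Sox4 acts with Sox9 in bile duct development. Sox5, Sox6 and Sox13 are SoxD proteins, which lack a transactivation domain of their own and act with partners. Sox5 and Sox6 act with Sox9 in cartilage. Sox7, Sox17 and Sox18 are SoxF proteins of endothelial cells, and Sox17 also has a role in endoderm and bile duct.

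Values below are log2 intensities, on which a difference of 1 is a doubling, and the change is HCC minus control. Array medians lay between 91.49 and 101.3 linear units, the highest on control array 1. Hepatocyte markers, a check of the tissue, had a mean log2 intensity of 12.54 to 12.63 in control livers and 11.96 to 12.58 in HCC. Xist, transcribed from an inactive X chromosome, was 10.68 to 11.76 on control arrays 1 to 3 and HCC arrays 1 and 2 and 4.83 to 5.10 on control array 4 and HCC arrays 3 to 5, so females and males were spread unevenly over the groups. HCC array 4 had low Xist together with a Y-linked Eif2s3y of 6.05, between the 3.42 to 3.86 of the Xist-high arrays and the 8.96 to 9.10 of the other Xist-low arrays. The probe set of Sry gave 7.34 to 7.91 on the Xist-high arrays and 7.20 to 7.50 on the Xist-low arrays. It thus gave as much signal on arrays with high Xist as on the others, no detection call was used, and an intensity alone is no statement that a transcript was present.

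The promoters of Sox4, Sox12 and Sox13 are shown because NICD acts through the DNA-binding protein Rbpj, and the core site of Rbpj, TGGGAA, is present in some of these windows and not in others. They were taken from RefSeq (GRCm38.p6), and each runs from 250 bases before to 50 bases after a transcription start, 5′ to 3′ along the minus strand, on which all these genes lie. Capitals mark TGGGAA, searched on both strands. Entries were matched for 5 of the 9 genes, namely Sox4, Sox5, Sox6 (6 starts), Sox12 and Sox13. No entry was matched for Sox7, Sox9, Sox17 and Sox18, so the Sox9 promoter was not searched.
Sox4, chr13:28953650-28953949: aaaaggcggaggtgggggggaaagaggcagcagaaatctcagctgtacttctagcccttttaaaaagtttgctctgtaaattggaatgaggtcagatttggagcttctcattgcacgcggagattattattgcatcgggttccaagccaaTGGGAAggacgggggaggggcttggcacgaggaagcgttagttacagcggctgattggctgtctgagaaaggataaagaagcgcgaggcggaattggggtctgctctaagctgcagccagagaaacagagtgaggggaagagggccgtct
Sox12, chr2:152397997-152398296: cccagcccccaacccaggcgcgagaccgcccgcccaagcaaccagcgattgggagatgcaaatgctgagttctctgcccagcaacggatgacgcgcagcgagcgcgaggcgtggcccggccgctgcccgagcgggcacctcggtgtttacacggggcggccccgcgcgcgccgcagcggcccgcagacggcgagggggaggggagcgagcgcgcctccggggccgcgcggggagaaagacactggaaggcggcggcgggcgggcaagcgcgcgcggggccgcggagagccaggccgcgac
Sox13, chr1:133424163-133424462: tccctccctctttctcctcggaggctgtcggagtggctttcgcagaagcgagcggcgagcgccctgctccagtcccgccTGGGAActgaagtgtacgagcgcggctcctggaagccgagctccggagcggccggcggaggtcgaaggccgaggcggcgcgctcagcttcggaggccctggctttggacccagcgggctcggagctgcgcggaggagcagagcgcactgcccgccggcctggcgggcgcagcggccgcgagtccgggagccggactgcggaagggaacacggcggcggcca
The Sox4 promoter held the core once, 100 bases before the start, and the Sox13 promoter once, 171 bases before it. None of the Sox12, Sox5 and Sox6 windows held these letters. Among all 32851 promoters of this length 25.6% held the core at least once. The short Sox core ACAAT, also searched on both strands and found in 31.0% of promoters, was in the Sox5 window and in 3 of the 6 Sox6 windows but not in those of Sox4, Sox12 or Sox13. A match is a description of letters and not of binding. GC content was 52.0% in the Sox4 window, 76.7% in that of Sox12 and 73.3% in that of Sox13.

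Of the 9 Sox genes, Sox9 rose in HCC and the other 8 did not pass the test. The test was limma with Benjamini-Hochberg adjustment over all genes and an adjusted p threshold of 0.05, under which 0.858% of all genes were called higher and 0.16% lower. The change was positive for Sox9 and Sox4 and negative for 7 genes, where 57.5% of all genes and 64.7% of those at or below the median gene level had a negative change. The median change was -0.094 over the 9 genes and -0.033 over all genes. The unadjusted p was below 0.05 for 4 of the 9, against 20.4% of all genes. The lowest tumour exceeded the highest control for Sox9 and Sox4, as for 5.63% of all genes, and the highest tumour was under the lowest control for Sox6, as for 3.86% of all genes. These are bulk tissue values, in which fewer cells of a type and less RNA per cell cannot be told apart.

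**Figure D1:**
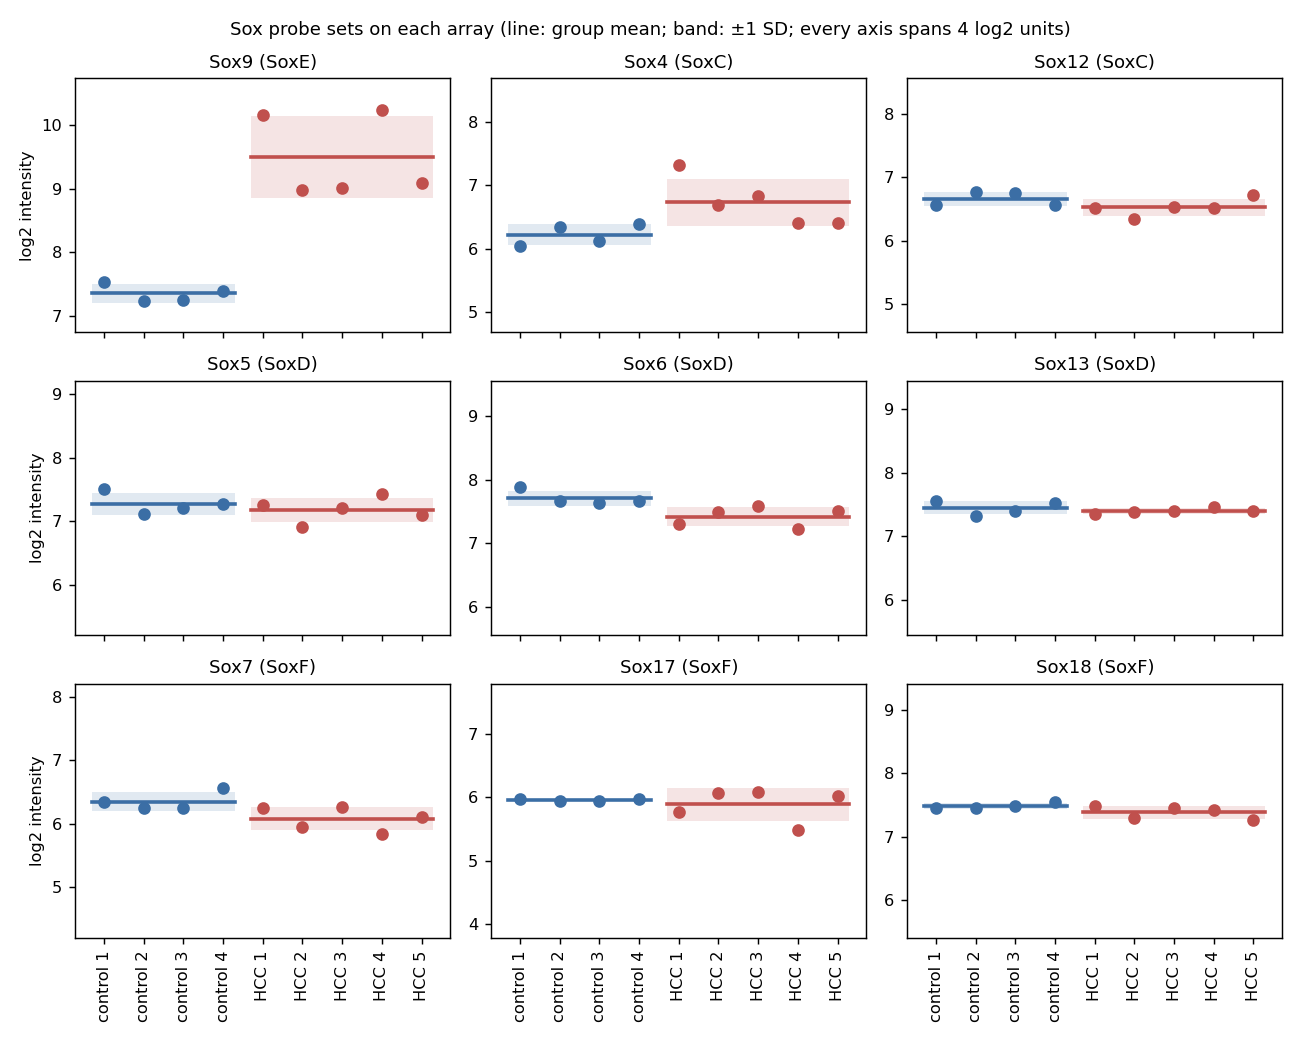
Log2 intensity of the 9 Sox probe sets (y axis, 4 log2 units in every panel) on each of the 9 arrays (x axis), control livers in blue and HCC in red, with the group mean as a line and 1 SD as a band. Sox9 shows a wide gap between the groups, with HCC arrays 1 and 4 highest, while the other genes differ by less than 1 log2 unit between group means.

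Sox9 (chromosome 11, 112782210 to 112787757 in GRCm38.p6) measured 7.54, 7.23, 7.24 and 7.39 on control arrays 1 to 4 and 10.16, 8.97, 9.02, 10.24 and 9.08 on HCC arrays 1 to 5. The groups did not overlap, and the lowest tumour lay 1.44 above the highest control. The tumours fell into a high pair, HCC arrays 1 and 4, and a lower trio within 0.11 of each other. The group means were 7.35 ± 0.14 (SD, n = 4) and 9.50 ± 0.65 (SD, n = 5), a 4.43-fold rise with a 95% interval of 2.79-fold to 7.03-fold (log2 change 2.15, SE 0.30, limma adjusted p = 0.0228). Sox9 had the 47th largest rise of all genes.

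The rise of Sox9 had nearly the same size whichever array was left out, but the call did not. The log2 change lay between 1.96 and 2.28 over the 9 omissions. Without HCC array 1, 2, 3, 4 or 5 the limma adjusted p was 0.0310, 0.0306, 0.0365, 0.0481 and 0.00925, and without control array 1, 2, 3 or 4 it was 0.0879, 0.0836, 0.103 and 0.0629. Each omission of a control thus ended the call. Over all genes the same omissions left 15, 13, 10 and 31 called higher, against 171 with all arrays. The change was 2.23 within the Xist-high arrays (3 controls, 2 HCC; limma adjusted p = 0.0720) and 2.06 within the Xist-low arrays (1 control, 3 HCC).

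The change of Sox9 was larger than that of each other Sox gene described here. The log2 ratio of Sox9 to each of the 8 other genes was computed within each array and compared between the groups by an exact two-sided permutation over the 126 splits of the arrays. The ratio was higher in HCC for 8 of 8 genes, on 5 of 5 HCC arrays each, by 1.64 for Sox4 and by 2.20 (Sox13) to 2.44 (Sox6) for the rest. Each exact p was 0.00794, the smallest this design allows, and the value adjusted over the 8 ratios was also 0.00794. Since Sox9 is in every ratio, the 8 results are not independent. The gap of 1.44 between the groups in Sox9 exceeded the whole range of each other gene over the 9 arrays. The separation of the groups in each ratio, and so each exact p, was therefore fixed by Sox9 alone. These p-values restate the gap in Sox9 and test nothing about the other 8 genes.

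Sox4, the SoxC gene of progenitor cells, measured 6.05, 6.33, 6.12 and 6.38 in the control livers and 7.32, 6.68, 6.82, 6.41 and 6.41 in the tumours. The groups were separated by 0.024, between HCC array 4 and control array 4, and HCC array 1 stood highest. The means were 6.22 ± 0.16 (n = 4) and 6.73 ± 0.37 (n = 5), a log2 change of 0.51 (SE 0.18, 95% interval 0.091 to 0.92, limma adjusted p = 0.178). The groups overlapped once array medians were subtracted (highest control -0.17, lowest tumour -0.22 relative to the array median) and also after repeated quantile normalisation. The change was 0.83 within the Xist-high arrays and 0.17 within the Xist-low arrays.

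Sox12, the other SoxC gene, measured 6.56, 6.77, 6.75 and 6.56 in control livers and 6.52, 6.35, 6.53, 6.52 and 6.72 in tumours. Tumours 1 to 4 were below every control and HCC array 5 was within the control range. The change was -0.13 (SE 0.089, 95% interval -0.33 to 0.068, limma adjusted p = 0.422).

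Among the SoxD genes, Sox6, a partner of Sox9 in cartilage and a regulator in muscle and red blood cells, measured 7.89, 7.66, 7.63 and 7.66 in the control livers. In the tumours it measured 7.30, 7.49, 7.58, 7.22 and 7.51. All tumours lay below all controls, by 0.052 at the closest, and the groups stayed apart with array medians subtracted. The means were 7.71 ± 0.12 (n = 4) and 7.42 ± 0.15 (n = 5), a log2 change of -0.29 (SE 0.097, 95% interval -0.51 to -0.072, limma adjusted p = 0.153). Control array 1, the array with the highest median, also gave the highest Sox6 value.

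Sox5 measured 7.11 to 7.50 in control livers and 6.91 to 7.43 in tumours, which overlap. Its change was -0.094 (95% interval -0.36 to 0.17, limma adjusted p = 0.685). Sox13, a SoxD gene of arterial walls and of some T cells, measured 7.33 to 7.56 and 7.35 to 7.46, so that all tumours lay inside the control range. Its change was -0.054 (95% interval -0.21 to 0.10, adjusted p = 0.688), the smallest of the 9.

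The SoxF genes, which act in blood vessels, showed no call. Sox7 measured 6.34, 6.24, 6.24 and 6.57 in control livers and 6.24, 5.95, 6.27, 5.84 and 6.11 in tumours, with 3 of 5 tumours below every control. Its change was -0.26 (SE 0.11, 95% interval -0.52 to -0.0095, limma adjusted p = 0.234). Sox18 measured 7.45 to 7.55 and 7.27 to 7.49, with a change of -0.10 (95% interval -0.26 to 0.059, adjusted p = 0.444).

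Sox17 was nearly constant over the controls, at 5.97, 5.94, 5.94 and 5.96, and spread in the tumours, at 5.77, 6.07, 6.08, 5.49 and 6.02. HCC arrays 2, 3 and 5 lay above every control and HCC arrays 1 and 4 below every control. The mean change was -0.064 (95% interval -0.34 to 0.22, limma adjusted p = 0.802), and it changed sign without HCC array 4 (0.035) and with array weights (0.0070). For 6 of the 9 Sox genes at least 2 arrays held an identical deposited value, as did 38.67% of all probe sets.

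**Figure D2:**
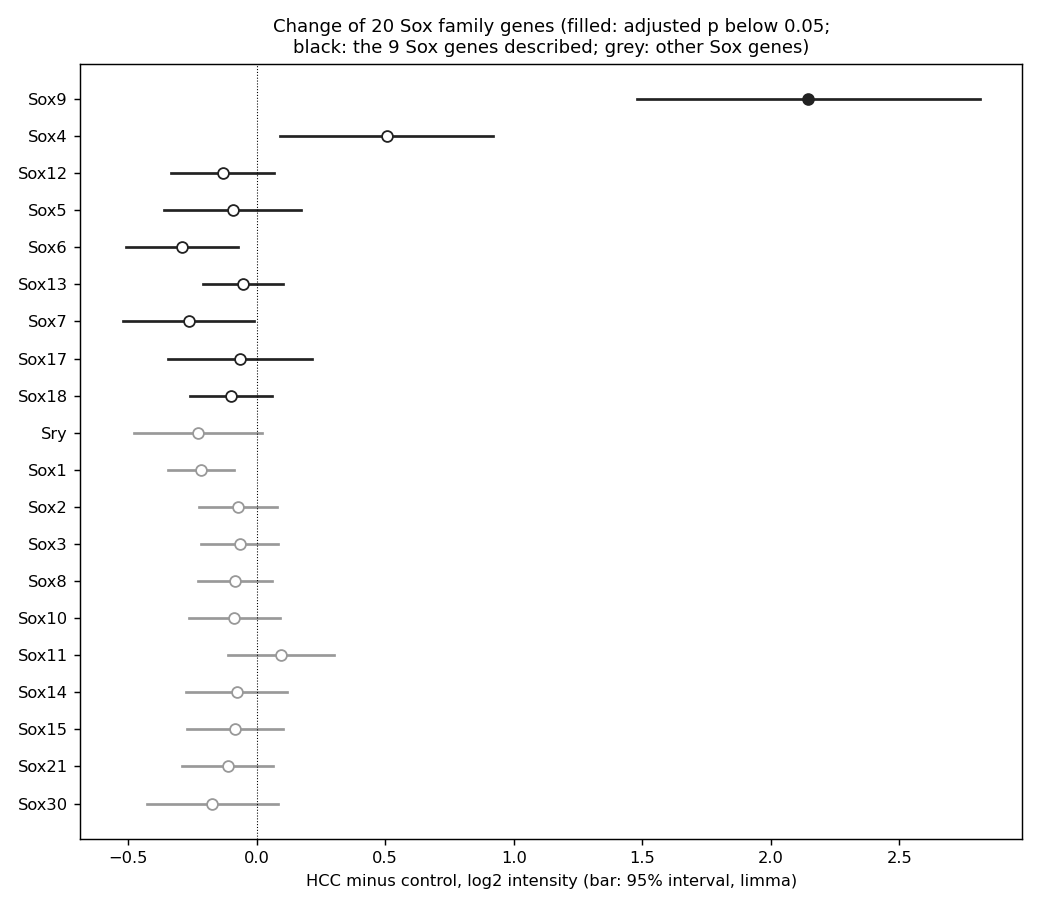
HCC minus control in log2 intensity (x axis) for the 20 measured Sox family genes (y axis), with the 95% interval from limma. Sox9 at 2.15 is the filled point, past the threshold, and the other 19 lie between -0.29 and 0.51.

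The other 11 Sox family genes are known mainly from the nervous system, the neural crest, the gonads and early embryos. None of the 11 passed the test, and 10 had a negative change. This held for 57.5% of all genes and 64.7% of those at or below the median gene level. Their median was -0.084 against -0.033 over all genes. Sox1, a factor of neural progenitors, measured 7.52 ± 0.042 in control livers and 7.31 ± 0.041 in HCC (change -0.22, limma adjusted p = 0.101). All tumours lay below all controls for Sox1, as for 3.86% of all genes. Sry measured 7.57 ± 0.23 and 7.35 ± 0.10 (adjusted p = 0.278), and Sox30, a factor of male germ cells, 5.37 ± 0.11 and 5.20 ± 0.21 (adjusted p = 0.411). Their mean level was 6.42 to 6.54 on the control arrays and 6.32 to 6.44 on the HCC arrays. Their changes ran from -0.23 to 0.094, and those of the 9 Sox genes apart from Sox9 and Sox4 from -0.29 to -0.054.

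Some of the Sox genes varied together, or in opposite directions, among the tumours. As deviations from the group means over the 9 arrays, Sox9 and Sox17 had a Pearson r of -0.909, Sox9 and Sox6 of -0.686, Sox9 and Sox5 of 0.732, and Sox6 and Sox17 of 0.814. HCC arrays 1 and 4, highest for Sox9, were lowest for Sox6 and Sox17. The pair did not stand together for Sox4, where HCC array 1 was highest and HCC array 4 lowest, nor for Sox7, Sox12, Sox13 and Sox18. These are the extreme pairs among 36, all points come from the same 9 arrays, and no test was made. HCC array 1 had high and HCC array 4 low Xist. Sox17 had the lowest level of the 9 genes, at percentile 26.9 of all genes, and a control SD of 0.017. Its r values thus rest on the tumours, mainly on HCC arrays 1 and 4 against HCC arrays 2, 3 and 5.

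Over the 9 arrays the genes most like Sox9 were Scd2, a stearoyl-CoA desaturase (r = 0.984), Car13, a carbonic anhydrase (0.977), Shcbp1, a protein of dividing cells (0.975), Arhgap44, a GTPase-activating protein (0.973), and Tmem45a, a membrane protein (0.971). Their log2 changes were 3.20, 1.55, 2.47, 1.50 and 3.66, with limma adjusted p of 0.00729, 0.0344, 0.0530, 0.0214 and 0.00561. The difference between the groups enters this r. By deviations from the group means the nearest were Grb10, an adaptor of insulin signalling (r = 0.994), the potassium channel Kcnma1 (0.983), the glycolytic regulator Pfkfb4 (0.976), the mitotic kinase Melk (0.973) and Zdhhc1 (0.971). None of these passed the test between groups (limma adjusted p 0.162 to 0.706). Their r rests largely on HCC arrays 1 and 4 against the other tumours. Grb10 was 8.41 and 8.52 on HCC arrays 1 and 4 and 6.89 on each of HCC arrays 2, 3 and 5. Kcnma1 was 5.93 and 6.11 against 5.45 to 5.46.

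**Figure D3:**
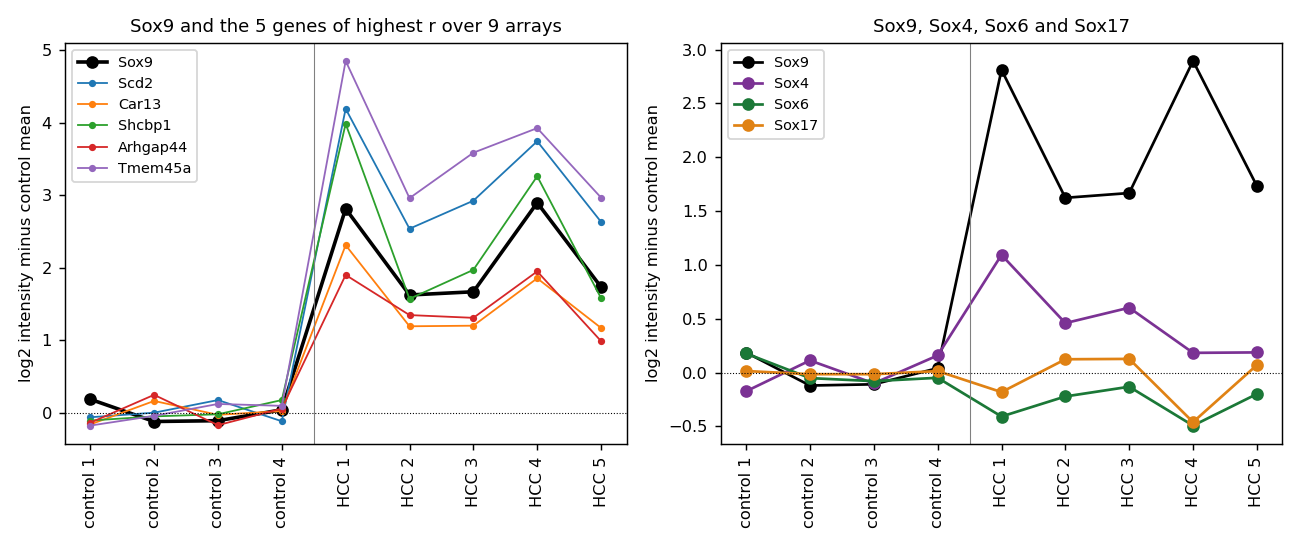
Log2 intensity minus the control mean (y axis) on the 9 arrays (x axis); lines join the values of 1 gene for legibility and carry no order. Left, Sox9 in black with the 5 genes of highest r; right, Sox9, Sox4, Sox6 and Sox17, where HCC arrays 1 and 4 are highest for Sox9 and lowest for Sox6 and Sox17.

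Genes of biliary epithelium, the cell type that Sox9 marks in liver, had a positive change in 11 of 12 measured cases. The threshold was passed by 2 of 12. Of all genes 57.5% had a negative change and 0.858% were called higher. Bicc1, an RNA-binding protein of ducts and tubules, rose from 7.03 ± 0.41 to 10.95 ± 0.77 (limma adjusted p = 0.00561), and Cd24a, a surface glycoprotein of progenitor cells, from 8.02 ± 0.43 to 10.95 ± 0.99 (adjusted p = 0.0347). Epcam, an epithelial adhesion molecule, measured 5.93 ± 0.20 and 7.12 ± 0.53 (adjusted p = 0.0604). Of other members, named after their values were seen, Krt7 changed by 0.31 and Sctr by -0.15 (limma adjusted p = 0.394 and 0.454). Krt19 changed by 0.75 (limma adjusted p = 0.281). It measured 6.01 and 6.04 on HCC arrays 3 and 4, within the control range of 5.79 to 6.21. On HCC arrays 1, 2 and 5 Krt19 measured 7.96, 6.90 and 7.02. In 5 of 12 all tumours lay above all controls, as for 5.63% of all genes. The list median was 0.97, and the mean level was 6.58 to 6.83 on control arrays and 7.54 to 8.63 on HCC arrays. The highest biliary means were on HCC arrays 1 and 2 (8.59 and 8.63), whereas Sox9 was highest on HCC arrays 1 and 4. The part of biliary or other cells in the rise of Sox9 was not tested. The call of Cd24a was lost in 6 of 9 omissions of 1 array (adjusted p up to 0.132) and under the replicate block (0.0588), and that of Bicc1 in none (up to 0.0383).

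Genes of proliferation were highest on the tumours with the highest Sox9. Of 4 measured, 1 passed the test, where 0.858% of all genes were called higher. Top2a, the topoisomerase of dividing cells, rose from 5.91 ± 0.10 to 8.70 ± 1.07 (limma adjusted p = 0.0409). Its change was 1.44 in place of 2.78 with the mean of its probe sets, and its call was lost in 7 of 9 omissions. The kinase Cdk1 measured 6.83 ± 0.25 and 8.59 ± 0.82 (adjusted p = 0.0640) and Mki67 6.11 ± 0.23 and 7.74 ± 0.92 (adjusted p = 0.0954). The mean of the 4 was 6.34 to 6.60 on control arrays and 9.55, 8.14, 7.63, 9.02 and 7.38 on HCC arrays 1 to 5, so HCC arrays 1 and 4 led as for Sox9. The part of proliferation in the Sox9 values was not tested.

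No rise was called among known cartilage targets of Sox9, Sox5 and Sox6. None of 11 passed the test. All 11 had a negative change, against 57.5% of all genes and 64.7% of those at or below the median gene level. The largest was that of Hapln1, a proteoglycan link protein, at -0.31 (5.47 ± 0.21 and 5.17 ± 0.12, limma adjusted p = 0.168). Comp, a cartilage matrix protein, measured 6.27 ± 0.11 and 6.11 ± 0.076 (adjusted p = 0.272), and the collagen Col9a3 7.64 ± 0.21 and 7.41 ± 0.12 (adjusted p = 0.274). The list median was -0.091. Matn1, also in the list and named after its values were seen, held the same value, 5.03, on control arrays 1, 2 and 4 and HCC arrays 1 to 3. Whether these probe sets gave signal above background was not tested.

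Of 5 genes described elsewhere as SoxC targets none passed, 3 had a positive change, and the list median was 0.14. Ezh2, the methyltransferase of Polycomb and a gene of dividing cells, measured 8.17 ± 0.15 and 9.56 ± 0.75 (limma adjusted p = 0.0866). All tumours lay above all controls for Ezh2, as for 5.63% of all genes. Tead2, a partner of Hippo signalling, measured 6.19 ± 0.13 and 6.48 ± 0.26 (adjusted p = 0.263), and the neuronal Dcx 5.50 ± 0.025 and 5.64 ± 0.20 (adjusted p = 0.465).

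The 10 genes described as SoxF targets, 5 of them also in the endothelial list, had a median change of 0.024. The test was passed by 1 of 10, upward, where 0.858% of all genes were called higher. This was Prox1, which is a Sox18 target in lymphatic vessels but also a factor of hepatoblasts and hepatocytes, at 9.39 ± 0.25 and 10.20 ± 0.24 (limma adjusted p = 0.0493; lost in 8 of 9 omissions of 1 array, adjusted p up to 0.141). With all arrays kept the call was also lost after repeated quantile normalisation (adjusted p = 0.0651), with trend and robust estimation (0.0546) and with Xist as a covariate (0.0650). Kdr, the VEGF receptor, measured 8.38 ± 0.12 and 7.74 ± 0.38 (adjusted p = 0.113), and Notch1 7.11 ± 0.13 and 7.40 ± 0.16 (adjusted p = 0.160).

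The endothelial list, which marks the cells that express SoxF genes, had a negative change in 16 of 23 genes, against 57.5% of all genes. The list median was -0.068, and 1 gene passed the test, upward, where 0.858% of all genes were called higher. The most negative changes were in 2 markers of sinusoidal endothelium, both named after their values were seen. These were Clec4g (9.82 ± 0.18 and 8.25 ± 1.47, change -1.58, limma adjusted p = 0.223) and Stab2 (8.33 ± 0.37 and 7.49 ± 0.79, change -0.85, adjusted p = 0.249). Of other sinusoidal markers in the list, Gpr182 and Lyve1 had positive changes (0.98 and 0.21), and Stab1 had a change of -0.15. All tumours lay below all controls for 2 of 23, Clec4g and Kdr, as for 3.86% of all genes. Cd34, a marker of capillary endothelium and progenitors, rose from 6.35 ± 0.048 to 7.33 ± 0.41 (limma adjusted p = 0.0498; lost in 7 of 9 omissions, adjusted p up to 0.151, and with array medians subtracted, 0.0572, or every probe set tested on its own, 0.0501). Tek, the angiopoietin receptor, measured 7.60 ± 0.27 and 6.95 ± 0.39 (adjusted p = 0.140). The mean level was 7.55 to 7.71 on control arrays and 7.30 to 7.81 on HCC arrays, lowest on HCC arrays 1 and 4, the arrays with the lowest Sox17. The part of endothelial cells in the Sox17 values was not tested.

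Several Sox proteins bind beta-catenin or its partners, and of 12 measured Wnt genes none passed, with a median of 0.13. HCC array 3 stood apart, with a mean level of 8.86 against 7.70 to 8.22 on the other tumours and 7.87 to 8.14 on the controls. On that array the Wnt targets Lgr5 and Axin2, named after their values were seen, measured 10.14 and 8.90, the highest values of each over the 9 arrays. Ctnnb1, beta-catenin itself, measured 9.86 ± 0.13 and 10.26 ± 0.32 (limma adjusted p = 0.201), glutamine synthetase Glul 12.50 ± 0.17 and 11.61 ± 0.88 (adjusted p = 0.247) and the secreted Wnt inhibitor Notum 7.22 ± 0.25 and 6.81 ± 0.47 (adjusted p = 0.345). Of 10 hepatocyte genes none passed, and 9 changes were negative, where 57.5% were over all genes. The lowest adjusted p were those of Cps1 of the urea cycle (13.27 ± 0.10 and 12.44 ± 0.50, adjusted p = 0.106), the tyrosine aminotransferase Tat (13.38 ± 0.089 and 12.50 ± 0.54, 0.111) and Fah (12.02 ± 0.035 and 11.32 ± 0.59, 0.193). None of 10 stellate cell and fibroblast, 8 macrophage and 7 lymphocyte genes passed, with mean levels of 7.66 to 7.82, 8.32 to 9.47 and 6.26 to 6.39 on control arrays and 7.33 to 7.87, 7.47 to 9.98 and 6.05 to 6.53 on HCC arrays.

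**Figure D4:**
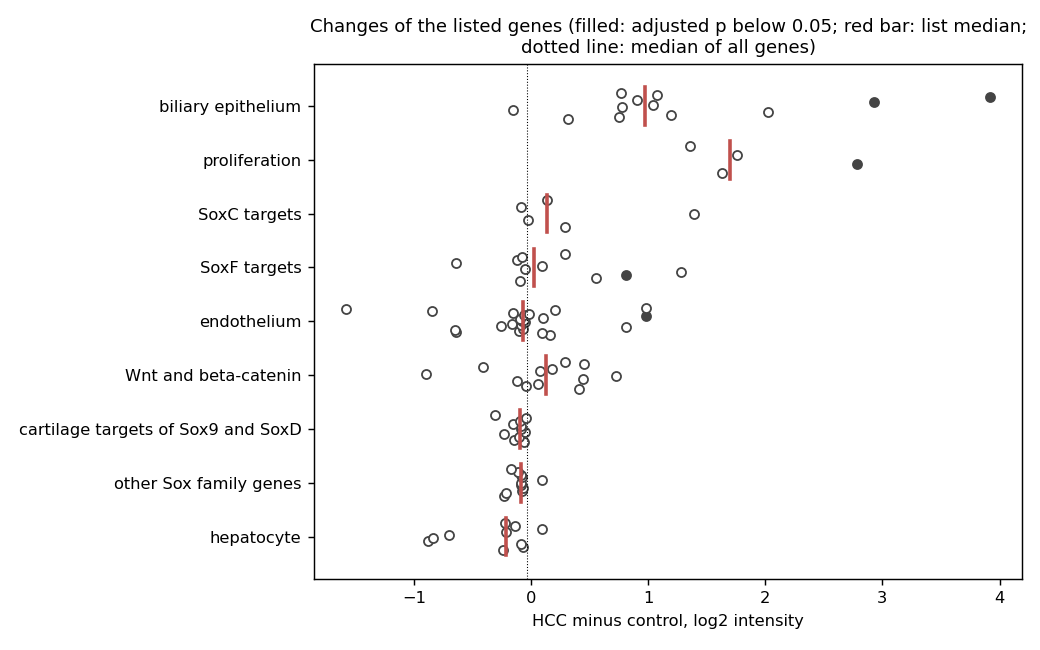
HCC minus control in log2 intensity (x axis) for each measured gene of 9 lists (y axis), filled where the limma adjusted p was below 0.05, with the list median as a red bar and the median of all genes, -0.033, as a dotted line. The biliary and proliferation medians (0.97 and 1.70) lie to the right, and the cartilage targets lie close together below 0.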

How the data were processed

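Probe set intensities were deposited by the authors on a linear scale, background-corrected, quantile-normalised and summarised by RMA according to the submitters' processing notes; GenePattern and R are named per the labels. No versions of these are given in the sources used here. Names for the 35512 probe sets came from the platform annotation, with symbols updated by Entrez identifier to RefSeq names. Of these, 21789 had 1 symbol, 1621 several and 12102 none, and for genes with several probe sets the brightest was kept (19938 genes). No low-value filter was applied, so every Sox gene entered the fit. Log2 intensities were compared by limma 3.58.1 (R 4.3.3; lmFit, eBayes, two-sided) on group alone, with p-values adjusted by Benjamini-Hochberg. The fit was tested on simulated data first. Plots and promoter searches used Python 3.11.15, pandas 2.3.3 and matplotlib 3.10.9. The number of arrays limits the precision. Nothing in the labels links an array to a single animal, and p-values measure the spread between arrays. The Sox genes, the 12 lists and the tests were chosen with earlier results of these data known. Genes named from a list are the 3 of lowest adjusted p, with exceptions named after their values were seen. The exceptions are Krt7, Krt19, Sctr, Clec4g, Stab2, Gpr182, Lyve1, Stab1, Lgr5, Axin2 and Matn1. Genes named for likeness to Sox9 are the 5 of highest r, clone-like symbols passed over. For stellate, macrophage and lymphocyte lists counts and levels alone are given. Some list members are not reported here, and list counts are over the genes measured.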

Additional observations from a re-analysis of the deposited data

Results flagged for a closer look

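In 5 of the 70 groups examined (35 genes, 2 groups each) 1 array stood apart by Dixon's criterion, where chance gives about 1 in 20 groups. Sox6 was 7.89 on control array 1, against 7.63 to 7.66 on the other controls. Sry was 7.91 on the same array, against 7.43 to 7.50. Control array 1 had the highest median intensity of the 9 arrays, 101.3. Cd34 was 6.42 on control array 2, against 6.32 to 6.34. On control array 4, where Xist was low, Tat was 13.25 against 13.42 to 13.43 and Top2a was 5.76 against 5.96 to 5.97.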

How the results depend on the processing

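Sox9 was higher and no other Sox gene was called under each of 9 other settings that used all arrays in the contrast. Counts over all genes moved more. Main counts were 171 higher and 32 lower. They were 285 and 93 with genes above the median level, 108 and 11 with array medians subtracted, 503 and 246 with array weights, 259 and 220 with the replicate number as a replicate block, in which HCC array 5 has no partner and adds nothing to the contrast (without it and with no block, 631 and 556), and 321 and 124 with the Y-linked mean (Eif2s3y, Kdm5d and Uty) as a covariate. With repeated quantile normalisation 50 were lower, and with the Xist-high arrays alone, a setting added after seeing the data, 113 were lower and 0 Sox genes called (Sox9 2.23, adjusted p = 0.0720). Under the filter on low levels 5 Sox genes were left, so 4 ratios to Sox9 were tested and 4 passed. Leaving out 1 array gave 10 to 631 higher, 0 to 556 lower, 0 to 1 Sox genes higher and 0 lower. All 8 ratios to Sox9 passed each time (exact adjusted p 0.0179 to 0.0286), which the gap in Sox9 alone fixed, as in the main result. Sox17 alone changed sign, to 0.0070 with array weights and, over omissions, between -0.11 and 0.035. Same-numbered arrays did not deviate together (r -0.083 to 0.324; 1 of 4 controls closest to its own number), and under the replicate block Sox9 was at 2.25 (adjusted p = 0.0264), the same change as without HCC array 5.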

Other observations

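The probe set of Sox6os, a noncoding RNA transcribed within the Sox6 locus and chosen after its values were seen, measured 6.88, 7.43, 7.12 and 6.87 in control livers and 6.24, 6.51, 6.59, 6.37 and 7.08 in HCC (change -0.52, 95% interval -0.93 to -0.11, limma adjusted p = 0.166). As for Sox6, HCC arrays 1 and 4 were the 2 lowest of the 9.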
